A study of Homo sapiens with 4 samples.

Results

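The genes described here are 10 members of the semaphorin signalling system, the ligands SEMA3A, SEMA3C, SEMA3F, SEMA4B, SEMA4C, SEMA6A and SEMA6B, the receptors PLXNA1 and PLXNB2, and the co-receptor NRP1. They were selected on their measured mRNA levels, out of 58233 gene identifiers in the count table. The levels used were those of cannabichromene (CBC)-treated against control cells in both lines and of the control lines against each other, so these comparisons are given as a description with no test. SEMA6B was 5.87-fold lower in MIA PaCa-2 and 5.01-fold lower in PANC-1 cells after CBC treatment. SEMA3A was also lower past the study's fold threshold in each line, whereas SEMA4C was slightly higher in each, and PLXNA1 and PLXNB2 were higher in MIA PaCa-2 cells and lower in PANC-1 cells.

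Semaphorins are secreted or membrane-bound proteins first known for steering growing axons, and they also act on cell migration, vessel growth and tumor cells. They bind plexins, large transmembrane receptors whose cytoplasmic part switches off small GTPases of the RAS family and so changes adhesion and the cytoskeleton. The secreted class 3 semaphorins mostly need a neuropilin, NRP1 or NRP2, as the binding subunit beside a plexin, whereas the membrane-bound classes 4 and 6 bind plexins directly.

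The cells were MIA PaCa-2 and PANC-1, both established lines from human pancreatic cancer and labelled WT, and each of the 4 groups was 1 library of polyadenylated RNA taken at 24 h. The MIA PaCa-2 groups received PBS or 35 µM CBC and the PANC-1 groups PBS or 30 µM CBC, a cannabinoid that the study's methods dissolve in acetonitrile. The doses are those of the methods, which speak of a vehicle control where the labels write PBS. Because the doses differed, a difference between the lines cannot be told apart from a difference in dose, and with 1 library per group no value has a replicate check. The libraries held 21742775 to 27903667 counts on genes.

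The cell lines were checked against marker genes. All 7 epithelial markers reached 1 CPM (a count scaled to the library's size) in at least 1 library, but CDH1 had 0 counts and EPCAM at most 1 in the MIA PaCa-2 libraries. After CBC treatment the summed epithelial CPM was 2558 against 3490 in MIA PaCa-2 and 1218 against 2060 in PANC-1, but KRT7 (2 and 52 counts in MIA PaCa-2) and CDH1 (32 and 131 in PANC-1) were higher. The summed CPM of the 4 mesenchymal markers was 3313 against 3421 and 4476 against 4436, nearly all of it from VIM (3249 against 3378 and 4356 against 4329). ZEB1 was higher after CBC in each line (959 and 1592 counts in MIA PaCa-2, 1691 and 2765 in PANC-1). CDH2 had 0 counts in MIA PaCa-2 and was lower in PANC-1 cells (725 and 507), and FN1 had 0 to 5 counts. The part of these markers in the results below was not tested. Of the 4 endothelial markers only CDH5 (49, 7, 0 and 1 counts in the order MIA PaCa-2 PBS, MIA PaCa-2 CBC, PANC-1 PBS, PANC-1 CBC) and of the 4 immune markers only CD14 (123, 18, 32 and 2) reached 1 CPM. PECAM1, PTPRC and CD3E were at 0 in every library, and 0 of 4 acinar or islet and 0 of 3 neuronal markers reached 1 CPM. CDKN2A and MTAP were listed as deleted in both lines from general knowledge. CDKN2A had 0 counts in every library, but MTAP had 0 only in MIA PaCa-2 and 42 and 52 counts in PANC-1 cells.

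Levels are given as CPM on library sizes scaled by the trimmed mean of M-values (TMM), and, where genes are set against each other, as CPM per kb of exon. Changes are log2 fold changes of TMM-scaled CPM with a prior count of 2, and a gene was called when it lay past 1 in either direction, the study's threshold, if it reached 1 CPM in 1 of the libraries compared. Square brackets give exact 95% Clopper-Pearson intervals of the count ratio, which cover counting error only. In these bulk libraries fewer cells expressing a gene and less of its RNA per cell cannot be told apart.

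By this rule 5 of the 9 members that passed the filter were lower in CBC-treated MIA PaCa-2 cells and 0 were higher, where 8.97% of all tested genes were lower and 11.5% were higher. Their median log2 fold change was -1.02 against -0.01 over all tested genes. In PANC-1 cells 3 of 9 were lower and 0 higher, beside 7.03% and 7.71% of all tested genes, with a median of -0.86 against 0.02. SEMA6B and SEMA3A were past the threshold in both lines, 2 of 9 members beside 2.98% of the genes tested in both. In control cells 3 of 9 members were higher in PANC-1 than in MIA PaCa-2 cells and 2 were lower, where 24% and 18% of all tested genes were. Since the members were chosen with these changes known, nothing is read from these counts. The threshold ran close to several members. SEMA3A lay just inside it at -1.04 and -1.02 and SEMA4B at -1.02 in MIA PaCa-2 cells, whereas PLXNB2 at -0.87 and SEMA3C at -0.86 lay just outside it in PANC-1 cells. With library totals in place of TMM, SEMA3A left the calls in both lines (-0.98 and -0.95), SEMA4B left them in MIA PaCa-2 cells (-0.95), and SEMA6B alone stayed lower in both. On the log2 scale of the deposited normalized values plus 1, SEMA4B in MIA PaCa-2 (-0.99) and SEMA3A in PANC-1 cells (-0.93) left the calls. SEMA6B again was the only member lower in both. The deposited values are the TMM-scaled CPM used here, so the added 1 in place of the prior count made this difference.

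**Figure D1:**
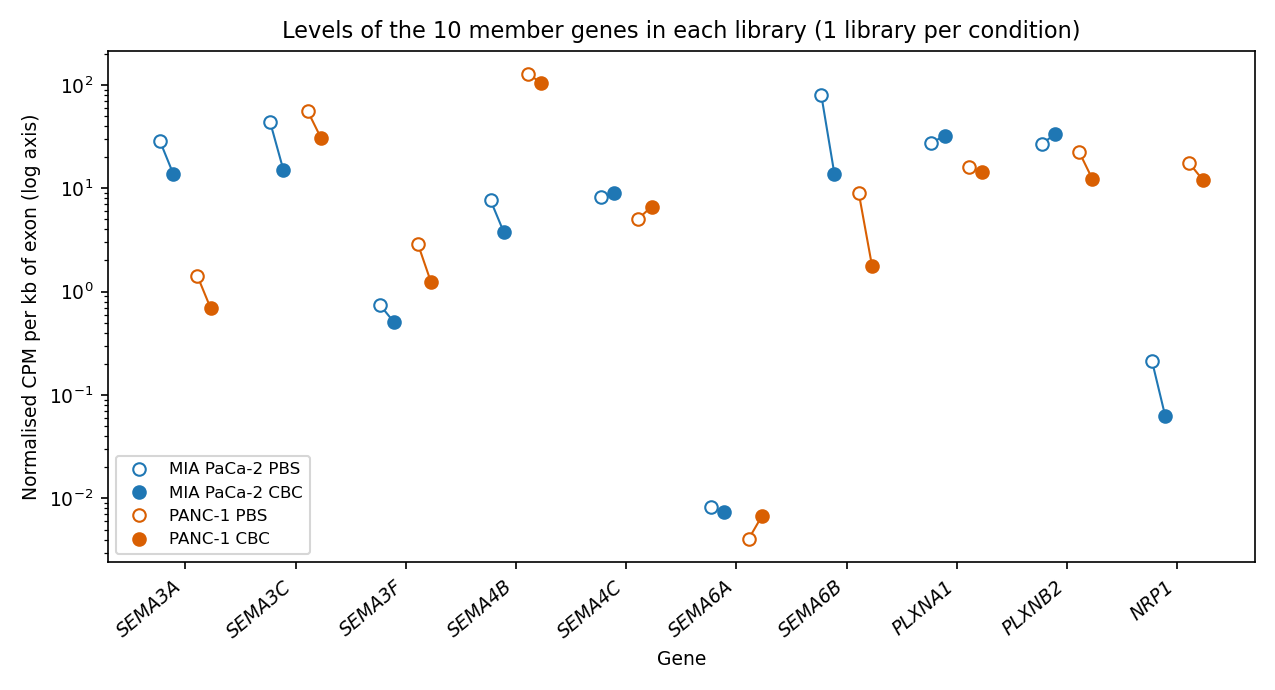
TMM-scaled level of each of the 10 members in the 4 libraries (CPM per kb of exon, log axis), 1 point per library and no error bar because each group had 1 library. SEMA6B led in control MIA PaCa-2 cells at 79.9 and SEMA4B in control PANC-1 cells at 127, while the SEMA6A points rest on 1 or 2 counts.

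SEMA6B (ENSG00000167680, chromosome 19 of GRCh38, 4542593 to 4581776, minus strand) encodes a membrane-bound class 6 semaphorin that binds A-type plexins. It had 8366 counts in control and 1584 counts in CBC-treated MIA PaCa-2 cultures, or 376 and 64.0 CPM. The PANC-1 libraries had 966 and 230 counts, or 42.5 and 8.42 CPM. Both CBC libraries lay well below the control of their own line, but the CBC-treated MIA PaCa-2 cells still held more SEMA6B than the PANC-1 control. The log2 fold change was -2.55 [-2.63, -2.48] in MIA PaCa-2 and -2.32 [-2.55, -2.13] in PANC-1 cells, which left 17.0% and 19.8% of the control level. Ranked from the largest decrease, SEMA6B was at place 75 of 14001 genes in MIA PaCa-2 and 95 of 14091 in PANC-1 cells. At baseline it was 8.84-fold lower in PANC-1 than in MIA PaCa-2 cells. SEMA6A (ENSG00000092421, chromosome 5, 116443555 to 116574823, minus strand), the other class 6 member, had 2, 2, 1 and 2 counts in the 4 libraries, all under the floor of 3 counts, and therefore has no fold change. SEMA6A-AS1 lies across 268 bp of its exons on the opposite strand and had 9 to 24 counts. Whether the counting used strand is not given in the sources used here.

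The 3 genes whose pattern over the 4 libraries was most like that of SEMA6B were CELSR2, SCNN1A and OSR1, at Euclidean distances of 0.682, 0.754 and 0.925 on centred log2 CPM over the 10067 genes whose mean reached 10 CPM. CELSR2, an atypical cadherin of planar cell polarity, had 1304 and 439 counts in MIA PaCa-2 and 174 and 34 counts in PANC-1 cells before and after CBC. SCNN1A, a subunit of the epithelial sodium channel, had 2027, 657, 201 and 71 counts in the same order. OSR1, a zinc finger transcription factor of kidney and heart development, had 1284, 457, 126 and 54 counts. They were picked for this likeness, so their shared directions are no finding.

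Among the secreted class 3 ligands, SEMA3C (ENSG00000075223, chromosome 7, 80742538 to 80922359, minus strand), a guidance cue of the developing heart that binds both neuropilins, was abundant in both lines. Its counts were 5900 and 2266 in MIA PaCa-2 and 7742 and 5129 in PANC-1 cells, or 265 to 91.6 CPM and 340.5 to 188 CPM. It was lower after CBC in each line, by more in MIA PaCa-2 (-1.53 [-1.60, -1.46]) than in PANC-1 cells (-0.86 [-0.91, -0.81]). The difference between the lines was 0.67 on the log2 scale and was not tested.

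SEMA3A (ENSG00000075213, chromosome 7, 83955777 to 84492724, minus strand) encodes the classical axon-collapsing ligand, which signals through NRP1 and A-type plexins. MIA PaCa-2 had 5878 and 3169 counts (264 and 128 CPM), but PANC-1 had 298 and 175 counts (13.1 and 6.40 CPM). The control levels were 20.05-fold apart, yet the changes after CBC differed by 0.02, at -1.04 [-1.11, -0.98] and -1.02 [-1.31, -0.76]. Both intervals reached across the threshold of -1. SEMA3F (ENSG00000001617, chromosome 3, 50155045 to 50189075, plus strand), which prefers NRP2, had few counts, 79 and 61 in MIA PaCa-2 and 318 and 162 in PANC-1 cells. Its log2 fold change was -0.51 [-1.03, -0.03] in MIA PaCa-2 and -1.23 [-1.52, -0.96] in PANC-1 cells, and the intervals overlapped. At baseline SEMA3F was 3.87-fold higher in PANC-1 cells.

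The class 4 members moved apart. SEMA4B (ENSG00000185033, chromosome 15, 90160604 to 90229679, plus strand), a membrane-bound semaphorin, had 1185 and 650 MIA PaCa-2 counts (53.3 and 26.3 CPM). The PANC-1 libraries had 20220 and 19956 counts (889 and 730.3 CPM), which per length (127 and 104 CPM per kb) lay above every other member in every library. Its log2 fold change was -1.02 [-1.16, -0.88] against -0.28 [-0.31, -0.26] in PANC-1 cells, so that the 16.7-fold gap between the control lines was wider after treatment. SEMA4C (ENSG00000168758, chromosome 2, 96859718 to 96870757, minus strand), a ligand of PLXNB2, was the only member above its control in both lines, from 51.8 to 56.4 CPM (1153 and 1395 counts) and from 31.7 to 41.6 CPM (720 and 1136 counts). These changes, 0.12 [0.01, 0.24] and 0.39 [0.26, 0.53], were far from the threshold.

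The sequences before the starts of SEMA3C and SEMA4C are shown because these ligands moved in opposite directions after CBC in both lines. They are the 250 bases upstream of the start (RefSeq, GRCh38.p14, minus strand, 5′ to 3′), with matches to the motifs searched in capitals. SEMA3C has different starts in the table, and gene counts do not say which was used.
SEMA3C, chr7:80922390-80922639: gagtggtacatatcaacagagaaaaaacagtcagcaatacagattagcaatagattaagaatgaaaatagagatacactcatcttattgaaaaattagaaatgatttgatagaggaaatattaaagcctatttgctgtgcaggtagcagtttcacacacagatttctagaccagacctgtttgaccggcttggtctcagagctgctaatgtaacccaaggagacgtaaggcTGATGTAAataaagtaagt
SEMA3C, chr7:80919052-80919301: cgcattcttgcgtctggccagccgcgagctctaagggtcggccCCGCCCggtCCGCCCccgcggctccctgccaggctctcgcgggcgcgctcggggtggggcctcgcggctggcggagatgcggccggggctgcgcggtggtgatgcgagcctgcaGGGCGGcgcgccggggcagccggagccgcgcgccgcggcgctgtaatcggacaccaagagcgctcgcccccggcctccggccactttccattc
SEMA4C, chr2:96870081-96870330: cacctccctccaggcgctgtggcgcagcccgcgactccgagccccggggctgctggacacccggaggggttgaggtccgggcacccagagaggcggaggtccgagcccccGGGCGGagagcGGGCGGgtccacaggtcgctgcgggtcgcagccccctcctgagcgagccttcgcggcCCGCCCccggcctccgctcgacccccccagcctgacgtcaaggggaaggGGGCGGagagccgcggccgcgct
The first SEMA3C sequence was 36.4% G or C with 2 CpG, and the other was 77.6% with 39 CpG, beside medians of 58% and 11 over 35116 promoters. The SEMA4C sequence was 78% G or C with 30 CpG. Both strands were searched for 9 motifs. The GC box GGGCGG, bound by SP and KLF factors, occurred 3 times in the G- and C-rich SEMA3C sequence, 4 times in SEMA4C and 0 times in the other SEMA3C sequence, and 42.6% of all promoters hold it. TGATGNAA, a composite element of ATF4 and C/EBP, matched once as TGATGTAA, 19 bases before the first SEMA3C start, and is in 3.14% of promoters. The others did not match in these 3 sequences, namely CACGTG (6.34% of promoters), TTTGGCGC (0.550%), TTTCCCGC (1.39%), TGACNNNGC (10.9%), TGANTCA (6.57%), CCAAT (32.0%) and ACGTG (18.5%, which lies within CACGTG). A match describes letters and is no evidence of binding. Entries were found for 6 of the 10 members, with SEMA3A, SEMA6A, SEMA6B and NRP1 not among them.

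Among the receptors, PLXNA1 (ENSG00000114554, chromosome 3, 126982693 to 127037389, plus strand), which pairs with NRP1 for class 3 signals, changed little. Its MIA PaCa-2 level was 309 and then 362 CPM (6872 and 8948 counts), and its PANC-1 level 180.4 and then 161 CPM (4101 and 4404 counts). The changes had opposite signs, 0.23 [0.18, 0.27] and -0.16 [-0.22, -0.10]. PLXNB2 (ENSG00000196576, chromosome 22, 50274979 to 50307646, minus strand), a receptor of class 4 semaphorins, was split more widely between the lines. Control and treated levels were 194 and 243 CPM in MIA PaCa-2 (4306 and 6008 counts) and 163 and 89.1 CPM in PANC-1 (3706 and 2435 counts), or 0.33 [0.27, 0.38] against -0.87 [-0.95, -0.80]. The control levels of PLXNB2 in the lines were close, at -0.25 [-0.31, -0.18] for PANC-1 over MIA PaCa-2. The difference between the lines was not tested for either plexin.

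NRP1 (ENSG00000099250, chromosome 10, 33177492 to 33336262, minus strand), the co-receptor of SEMA3A and of vascular endothelial growth factor, set the lines furthest apart at baseline among the members. It had 55 counts in control MIA PaCa-2 cells and 4563 in control PANC-1 cells, or 2.47 and 200.7 CPM, a 78.6-fold difference. After CBC it had 18 counts in MIA PaCa-2 and 3809 in PANC-1 cells, or 0.73 and 139 CPM. The log2 fold change was -1.66 in MIA PaCa-2 cells, with a wide interval [-2.62, -0.97] because of the low counts, and -0.53 [-0.59, -0.46] in PANC-1 cells. On the log2 scale of the deposited normalized values plus 1, the MIA PaCa-2 change was -1.01.

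**Figure D2:**
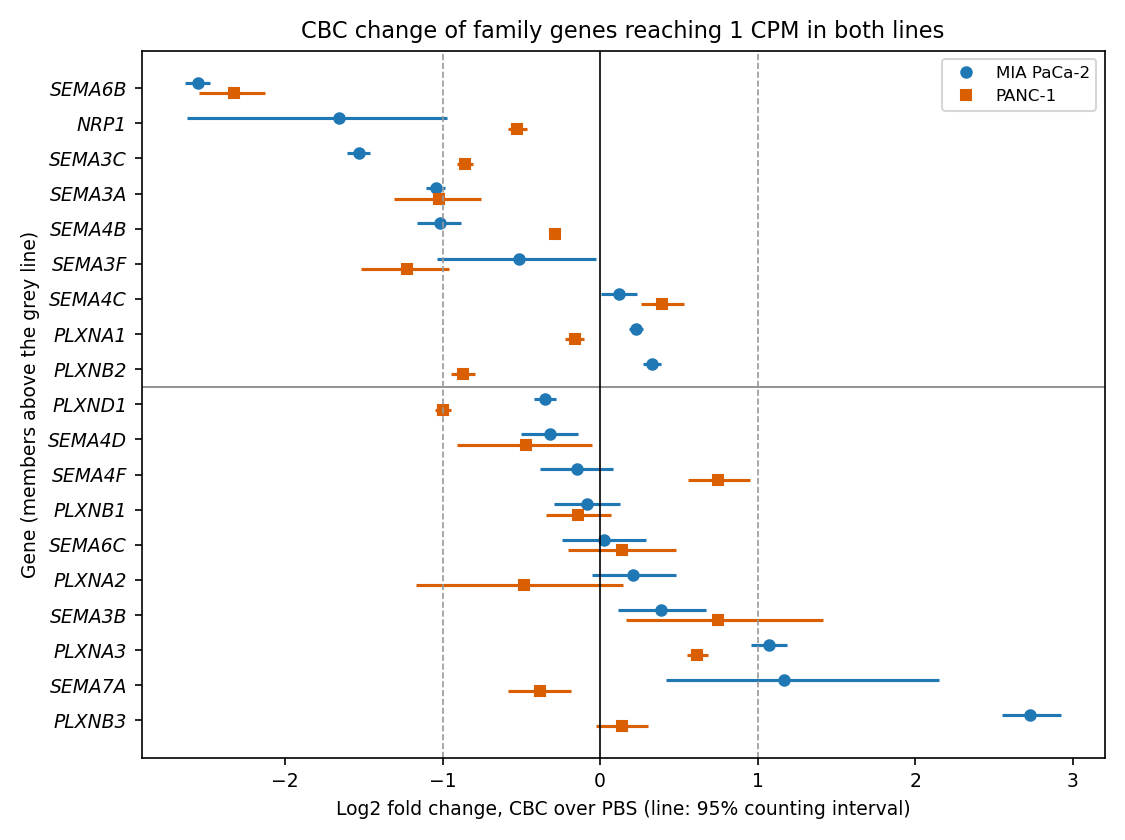
Log2 fold change, CBC over PBS, of the 19 semaphorin system genes that reached 1 CPM in both lines, with members above the grey line, circles for MIA PaCa-2, squares for PANC-1, bars for 95% counting intervals and dashed lines at the threshold. SEMA6B lies far left in both lines, while PLXNA1 and PLXNB2 lie on opposite sides of 0 and PLXNB3 is highest at 2.73 in MIA PaCa-2 cells.

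Set against each other per length, the members changed order with CBC. In control MIA PaCa-2 cells SEMA6B led at 79.9 CPM per kb, before SEMA3C (43.5), SEMA3A (28.5), PLXNA1 (27.5) and PLXNB2 (26.6), the last 3 of which lay close together. After CBC, PLXNB2 (33.4) and PLXNA1 (32.2) came first, before SEMA3C (15.02), SEMA3A (13.8) and SEMA6B (13.6). In PANC-1 cells SEMA4B led with and without CBC (104 and 127 CPM per kb) and SEMA3C came next (30.8 and 55.8). PLXNB2, NRP1 and PLXNA1 followed in the control at 22.4, 17.4 and 16.1 and stood at 12.3, 12.1 and 14.3 after CBC. The spread between cultures was not measured, so neighbours in these orders cannot be called different.

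The level of all semaphorin genes of the family, summed per length, was 177 CPM per kb before and 63.8 after CBC in MIA PaCa-2, and 211 before and 156 after in PANC-1. The decrease lay in the members, which were chosen with these changes known. The 13 semaphorins that are no members summed to 8.34 and 8.05 CPM per kb in MIA PaCa-2, and to 9.86 and 10.4 in PANC-1. SEMA6B made up 45.2% of the sum of all semaphorins in control MIA PaCa-2 cells and 21.3% after CBC. In PANC-1 cells it made up 4.27% and 1.15%, whereas SEMA4B made up 60.2% and 66.9%. The class 6 sum was left at 0.188 of its control in MIA PaCa-2 and 0.286 in PANC-1 cells, and the class 3 sum at 0.422 and 0.553. The class 4 sum moved less, to 0.817 and 0.854 of the control. These 3 ligand sums, which the chosen members dominate, were lower than the control in both lines, whereas the summed plexin level was 1.27 times its control in MIA PaCa-2 cells and 0.736 times in PANC-1 cells. The neuropilin sum was 0.23 and then 0.07 CPM per kb in MIA PaCa-2, and 22.1 and then 13.9 in PANC-1.

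**Figure D3:**
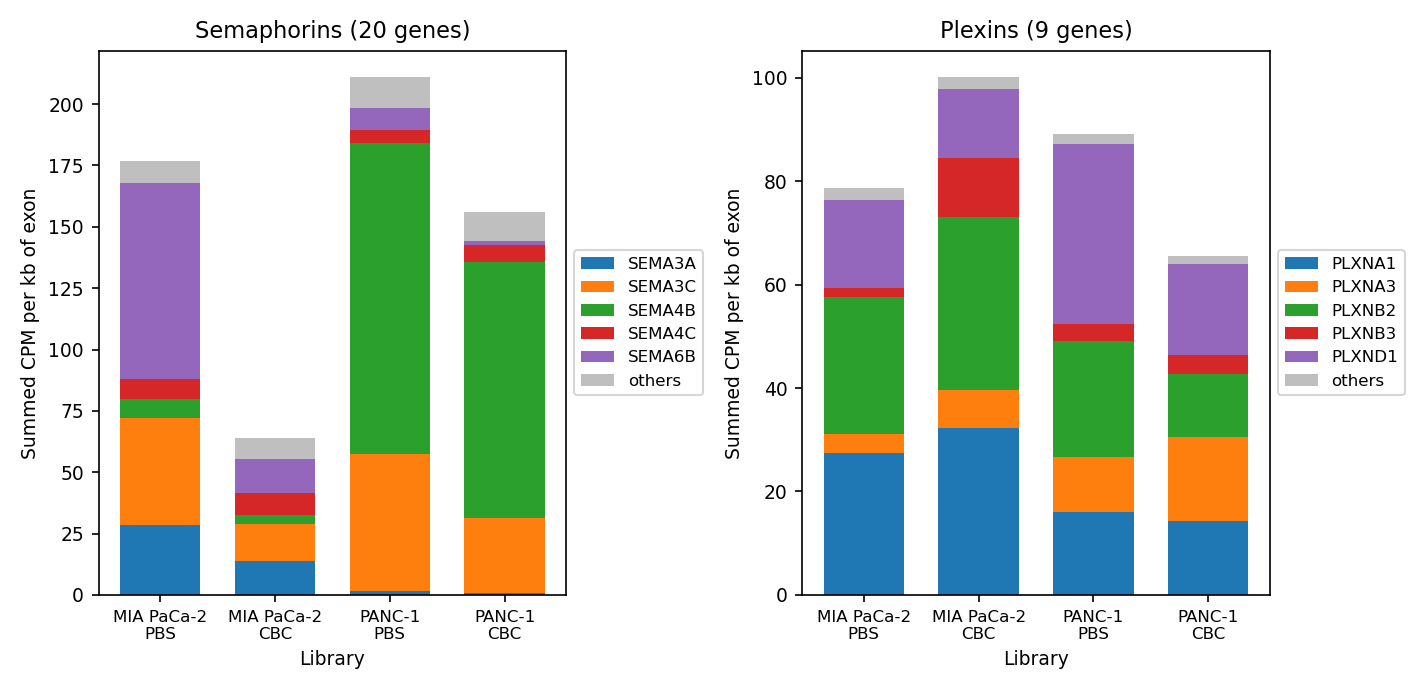
Summed level of semaphorins and of plexins in each library (CPM per kb of exon), stacked by gene, with 1 library per bar. The semaphorin bar shrinks from 177 to 63.8 in MIA PaCa-2, where the SEMA6B segment goes from 79.9 to 13.6, and from 211 to 156 in PANC-1, where SEMA4B fills most of it, and the decrease lies in the chosen members.

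The family has 21 further genes, and 2 of these (SEMA5B and SEMA6D) had 0 counts in every library. In MIA PaCa-2 cells 11 passed the filter, with 3 higher past the threshold and 1 lower, and their median log2 fold change was 0.02. PLXNB3, a B-type plexin, had 267 and 1977 MIA PaCa-2 counts (2.73 [2.55, 2.92]) but 529 and 701 PANC-1 counts (0.14 [-0.02, 0.31]). SRPK3 shares 1432 bp of exon with it on the same strand and had at most 15 counts. PLXNA3, an A-type plexin, went from 921 to 2151 and from 2808 to 5177 counts (1.07 and 0.62), and SEMA7A, the membrane-anchored class 7 semaphorin, from 17 to 45 and from 427 to 393 counts (1.17 and -0.38). SEMA3D was the lower gene, with 188 and 101 counts. In PANC-1 cells 14 passed, with a median of -0.19 and 8 of 14 below 0, and 0 were higher and 2 lower past the threshold, namely NRP2 (1482 and 680 counts, -1.39 [-1.52, -1.26]) and SEMA3G (25 and 4 counts). PLXND1, a receptor that can bind SEMA3E without a neuropilin, lay at the threshold in PANC-1 cells with -0.998 (7588 and 4566 counts) and at -0.35 in MIA PaCa-2 cells (3610 and 3144 counts). SEMA4F had 325 and 658 counts in PANC-1 cells (0.75) and 307 and 308 in MIA PaCa-2 cells.

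The control lines also differed in these genes. NRP2 had 5 counts in MIA PaCa-2 and 1482 in PANC-1 cells. SEMA3E had 0 counts in MIA PaCa-2 and 51 in PANC-1 cells, a 16.6-fold higher level in PANC-1 with the floor of 3 counts in place of 0. SEMA4G, with 0 and 68 counts, was 22.2-fold higher on the same floor, but MRPL43 overlaps 1215 bp of its exons on the opposite strand. The lower limits of the counting intervals were 3.70 for SEMA3E and 4.13 for SEMA4G on the log2 scale. The remaining genes that reached 1 CPM in some library had few to moderate counts, in the order used above. They were SEMA3B (179, 261, 34 and 70), SEMA4D (537, 478, 102 and 88), SEMA6C (223, 252, 127 and 168), PLXNA2 (211, 272, 45 and 38) and PLXNB1 (373, 391, 376 and 410).

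Family and pathway genes that are no members, from lists also written with earlier results known, were tested in the 4 libraries together by the edgeR quasi-likelihood method, CBC against PBS with the cell line as a block, with Benjamini-Hochberg adjustment over 16381 genes. Of all genes tested, 2.26% were called higher and 2.45% lower, 3428 had an unadjusted p under 0.05, and DESeq2 called 1366. Of the 15 other family genes tested, 0 were called, 5 had an unadjusted p under 0.05, and DESeq2 called 2. The closest were NRP2 (-1.40, SE 0.35, adjusted p = 0.0644), whose value rests on PANC-1 cells since MIA PaCa-2 had 5 and 2 counts, and PLXNA3 (0.85, SE 0.22, adjusted p = 0.0765).

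Among 17 tested co-receptors and other ligands, 1 was called. VEGFA, a growth factor that binds the neuropilins, rose from 2172 to 9606 counts (MIA PaCa-2) and from 1447 to 5612 counts (PANC-1), by 1.85 on the log2 scale over both lines (SE 0.20, adjusted p = 0.00809). Of 36 tested signalling genes 1 was called, the Src family kinase FYN, which works downstream of A-type plexins. FYN rose from 27 to 385 and from 6 to 188 counts (4.08, SE 0.48, adjusted p = 0.00932). RND1, a small GTPase that binds plexins, had 16 and 155 MIA PaCa-2 counts and 12 and 36 PANC-1 counts, past the threshold in each line but not called (adjusted p = 0.0908). Of 7 tested processing enzymes 1 was called. ADAM17, a protease that sheds membrane proteins, rose from 1710 to 4088 and from 2005 to 5426 counts (1.14, SE 0.20, adjusted p = 0.0240). Without the cell line as a replicate block, edgeR called 0 of the 75 family and pathway genes tested, 4 of which had an unadjusted p under 0.05. The share of all genes called without the block is not given here. With the block DESeq2 called 6, beside 1366 among the 16381 genes that passed the edgeR filter. DESeq2 filters by its own rule, and the number of genes it tested is not given here. The cell lines are the only replication in this test, which left 1 residual degree of freedom.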

How the data were processed

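Polyadenylated RNA from 2 cell lines with and without CBC was sequenced in 4 libraries. For trimming the authors used cutadapt 2.7, for alignment to GRCh38 STAR, and for counting HTSeq. Raw counts by Ensembl gene were deposited. The deposited normalized signal is TMM-scaled CPM by edgeR, which was recomputed from the counts with a largest relative difference of 6.84e-09. Members and gene lists were chosen with earlier results of these data known.

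Fold changes (log2) were computed in edgeR 4.0.16 under R 4.3.3 (TMM over 4 libraries, prior count 2, filter of 1 CPM in 1 library). Exon lengths, positions and symbols came from GENCODE release 44, for 57392 of 58233 identifiers. Intervals came from scipy 1.17.1, and the floor of 3 counts was 0.110 to 0.135 CPM. The edgeR quasi-likelihood test across lines, with the common coefficient of variation at 23.0%, was also run on simulated counts. These gave all genes a common spread and placed equal changes in both lines, outside the genes with low counts. The simulation therefore does not cover genes with low counts or with changes that differ between the lines. Its pairing comes from the cell lines, and deviations of paired libraries had a correlation of 0.922. This is the correlation over genes of the line difference with and without CBC. It does not measure how well the CBC changes of the lines agree. Alternatives changed scaling, prior count, filter, block and tool (DESeq2 1.42.0). Named genes were all members, family genes reaching 1 CPM, partner genes past the fold in both lines or called, and the 3 nearest to SEMA6B. The kit was directional, and whether counting used strand is not given in the sources used here.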

Additional observations from a re-analysis of the deposited data

Results flagged for a closer look

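In 3 of the 19 semaphorin, plexin and neuropilin genes that reached 1 CPM in both lines, the lines moved in opposite directions after CBC treatment with both counting intervals off 0, and the difference between the lines was not tested. Whatever their intervals, 2 of 9 members and 3 of 10 other family genes had opposite signs in the lines, beside 3760 of 12502 over all genes. The count over all genes with both intervals off 0 was not made. The log2 fold change in PANC-1 minus that in MIA PaCa-2 cells was -0.39 for PLXNA1, -1.20 for PLXNB2 and -1.55 for SEMA7A. SEMA7A rests on 17 and 45 counts in MIA PaCa-2 cells.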

How the results depend on the processing

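Of 162 values of members under alternative scalings, prior counts and deposited values, 148 stayed within their counting interval, 14 moved outside it and 0 reversed. The number of members past the fold in MIA PaCa-2 cells (5) was 3 with library totals and 2 when the whole counting interval had to lie past the threshold, and in PANC-1 cells (3) it was 1 under the latter. It was 4 in MIA PaCa-2 with 1 CPM required in both libraries (NRP1 lost) or with deposited values plus 1. In PANC-1 it was 2 with deposited values plus 1 or library totals. SEMA6B ranged from -2.57 to -2.49 and from -2.35 to -2.21. Library totals shifted the baseline median of all genes by -0.13.

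The number of pathway genes called over both lines (3) was 6 with DESeq2, 13 with no filter beyond 1 count and 10 at a threshold of 0.10. It was 0 without the replicate block, where 4 had an unadjusted p under 0.05. The shares of all genes called with no filter, at 0.10 and without the block are not given here, so nothing is read from those changes. TMM factors from all genes, chosen after seeing the data, gave 3. With 1 library per group no replicate could be left out within a line, and depth limits SEMA6A, NRP1 in MIA PaCa-2 cells and SEMA3G.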

Other observations

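Among 42 other axon guidance genes, 27 entered the edgeR quasi-likelihood test, and 3 were called higher and 1 lower after CBC treatment, beside 2.26% and 2.45% of all genes tested. DESeq2 called 3. Without the cell line as a block, a setting added for this list after seeing the data, edgeR called 0, and 0 had an unadjusted p under 0.05. With TMM factors from all genes the lower call was lost. With DESeq2 size factors in edgeR it was lost too, and 2 were called higher. Library totals gave 3 higher and 1 lower, and no filter beyond 1 count in all gave 4 and 5. The shares of all genes called under these edgeR settings are not given here. UNC5B, a netrin receptor, had 34 and 912 MIA PaCa-2 counts and 9 and 56 PANC-1 counts (adjusted p = 0.0188). ROBO3, a guidance receptor of the ROBO family, went from 372 to 1148 and from 177 to 657 counts (adjusted p = 0.0227), and ROBO4, its vascular relative, from 1309 to 5378 and from 1 to 71 counts (adjusted p = 0.0349). EPHA7, an ephrin receptor, went from 324 to 19 and from 307 to 111 counts (adjusted p = 0.0425).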
